A study of Rattus norvegicus with 18 samples.

Results

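Endocannabinoids are lipid messengers that cells make on demand, and their signal is set by a receptor and by the enzymes that make and degrade them. The receptor here is Cnr1, the type 1 cannabinoid receptor. It sits on nerve terminals, where it lowers transmitter release, and is also present on fat cells. In the hypothalamus its activation is known to promote feeding. The messenger 2-arachidonoylglycerol is made by Dagla, a diacylglycerol lipase, and cleaved mainly by Mgll, monoacylglycerol lipase. In fat cells Mgll also releases the last fatty acid from stored triglyceride. The messenger anandamide is released from its membrane precursor by Napepld, a phospholipase D, and cleaved by Faah, fatty acid amide hydrolase.

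These 5 genes were followed on 18 rat arrays of subcutaneous abdominal fat and hypothalamus. Members were all probe sets whose only gene symbol in the platform annotation was one of the 5 names. The rule found 8 probe sets of 3 genes, out of 14224 named genes in the series: 2 of Cnr1, 4 of Mgll and 2 of Faah. Napepld and Dagla had 0 probe sets under the rule and were not analysed here. Both Faah probe sets carry the symbol under a pair of gene identifiers and were counted as having a single symbol.

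The arrays came from 3 treatment groups, with 3 arrays per group and tissue, described by the submitters as biological replicates. RYGB-Success rats had undergone Roux-en-Y gastric bypass, in which a small pouch of stomach is connected to a lower stretch of the small intestine, and were losing weight. RYGB-Fail rats had undergone the same operation and were regaining weight. Pair-Fed rats were given the amount of food that the treated rats ate. The labels used here give no strain, sex, age or time after surgery, and do not say whether Pair-Fed rats had a sham operation. Values are the deposited signal intensities, on a linear scale with a common trimmed mean per array, and differences are in log2 of that signal, given ± their standard error.

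The arrays matched their tissue by marker levels: neuron markers had a mean log2 signal of 5.86 to 7.68 in fat and 11.2 to 11.8 in hypothalamus, and adipocyte markers 11.2 to 12.7 in fat and 4.39 to 6.78 in hypothalamus. The median signal of an array was 91.1 to 127 in hypothalamus and 98.2 to 199.997 on 8 arrays of fat. The third RYGB-Fail fat array stood apart, with a median signal of 288, a correlation with the remaining arrays of its tissue of 0.73 in the median, against 0.794 or more for the rest, and the lowest 3' to 5' beta-actin ratio in fat, 2.46. The third RYGB-Success hypothalamus array had the lowest beta-actin and GAPDH ratios of its tissue, 6.65 and 1.58, and the second Pair-Fed hypothalamus array the highest beta-actin ratio, 179, with 48.5 the next highest. Tests within a tissue took the brightest 60% of probe sets there, ranked by mean log2 signal, which left 18625 per tissue. In hypothalamus 7 of the 8 member probe sets passed this filter, at a mean signal of 52.7 or more. In fat 3 passed, all of Mgll, at 88.9 or more, and 1 Mgll probe set (1375355_at) passed in neither tissue.

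The promoters of the 2 degrading enzymes are shown because Faah and Mgll differed in opposite directions between the tissues. The sequences are from RefSeq, build GRCr8, 250 bases before to 50 after the start of the gene, on the strand of the gene: Mgll at chr4:122749186-122749485 (plus strand) and Faah at chr5:134735347-134735646 (minus strand). Capitals mark matches, on either strand, to 4 motifs. The GC box was searched as GGGCGG. The CCAAT box was searched as those 5 letters. For the TATA box the letters were TATAAA. The E-box searched for was CACGTG.
Mgll: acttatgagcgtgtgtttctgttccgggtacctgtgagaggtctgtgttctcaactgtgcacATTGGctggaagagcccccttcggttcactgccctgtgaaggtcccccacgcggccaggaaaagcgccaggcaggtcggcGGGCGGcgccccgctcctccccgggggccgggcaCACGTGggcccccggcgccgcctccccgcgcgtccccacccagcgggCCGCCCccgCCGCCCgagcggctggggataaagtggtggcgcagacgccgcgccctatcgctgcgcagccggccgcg
Faah: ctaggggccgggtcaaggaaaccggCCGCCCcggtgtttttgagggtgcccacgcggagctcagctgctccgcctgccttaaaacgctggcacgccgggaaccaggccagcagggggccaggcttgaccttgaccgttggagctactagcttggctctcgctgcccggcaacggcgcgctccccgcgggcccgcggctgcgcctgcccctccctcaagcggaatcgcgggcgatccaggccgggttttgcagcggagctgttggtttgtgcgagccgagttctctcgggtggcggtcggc
The Mgll window held 3 GC boxes, 1 CCAAT box and 1 E-box, and the Faah window 1 GC box. Of 33469 rat promoter windows of this length, 33.1% held a GC box, 37.5% a CCAAT box, 14.2% a TATA box and 6.42% this E-box. Base composition was 72.3% G and C for Mgll and 69.7% for Faah, against a median of 51.7% over all windows. A match is a run of letters and was not tested as a binding site.

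The clearest differences in member signal lay between fat and hypothalamus. In Pair-Fed rats Cnr1 and Faah were lower in fat than in hypothalamus, and Mgll was higher. Of the 8 member probe sets 5 passed, 2 higher and 3 lower in fat. Over all 31042 probe sets tested 27.2% passed, 15.8% higher and 11.4% lower, so a difference between the tissues was common.

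The brighter Cnr1 probe set (1369677_at) read 106, 127 and 118 in Pair-Fed fat, against 2236.5, 1889.95 and 2074 in Pair-Fed hypothalamus. The ranges were far apart, and signal in fat was 17.7-fold lower (difference -4.14 ± 0.41, adjusted p = 9.46e-08 in limma). Under 11 alternative settings the difference stayed between -4.65 and -3.97 and passed in 11. This probe set did not pass the filter in fat, so the low side is not shown to lie above background and the fold is uncertain. The dimmer Cnr1 probe set (1387674_at) read 9.21, 62.2 and 2.71 in fat, against 36.6, 77.9 and 72.3 in hypothalamus. These ranges overlapped, and its difference of -2.35 ± 1.10 did not pass (adjusted p = 0.12). It passed under 3 of 11 alternative settings.

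Faah was dim in fat. Probe set 1368717_at read 41.7, 12.1 and 48.4 in Pair-Fed fat, against 164, 232 and 289 in Pair-Fed hypothalamus. Probe set 1384341_at read 80.8, 2.30 and 16.9 in fat, against 261, 165 and 248 in hypothalamus. Each fat array lay below each hypothalamus array for both. The differences were -2.94 ± 0.65 (adjusted p = 0.00145) and -3.91 ± 0.99 (adjusted p = 0.00499), and both passed under 11 of 11 alternative settings. Neither probe set passed the filter in fat and no detection calls were used, so the low side is not shown to lie above background and the sizes are uncertain. With 16 units added to each signal the differences were -2.34 and -2.61.

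Mgll ran the other way. Its brightest probe set (1388644_at) read 1549, 2847 and 2629 in Pair-Fed fat, against 366, 704 and 530.1 in Pair-Fed hypothalamus, a difference of 2.14 ± 0.32 (adjusted p = 2.82e-05). Probe set 1370831_at read 1067, 1145 and 1013 in fat, against 284, 167 and 335 in hypothalamus, a difference of 2.10 ± 0.46 (adjusted p = 0.00132). Both had every fat array above every hypothalamus array, by 4.39-fold and 4.27-fold. Another Mgll probe set (1375247_at) also did not overlap, at 348, 597 and 446 in fat against 89.8, 158 and 88.4 in hypothalamus, but its difference of 2.07 ± 0.99 did not pass (adjusted p = 0.13). The dimmest (1375355_at) read 4.85 to 20.8 in fat and 5.53 to 61.9 in hypothalamus, and the ranges overlapped. Groups that did not overlap were thus seen for 3 member probe sets higher and 3 lower in fat, against 33.5% and 18.6% of all probe sets.

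The size of the tissue differences depended on scaling. The median difference over all probe sets was 0.49 in favour of fat on the deposited scale and -0.01 after each array was centred on its median. Among all probe sets that passed, 58% were higher in fat on the deposited scale, against 48.6% after quantile normalization and 38.1% after median centring. No member difference changed sign under either. Mgll 1370831_at no longer passed after median centring, at 1.59 (adjusted p = 0.0603), and the other 4 probe sets that had passed still did.

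**Figure D1:**
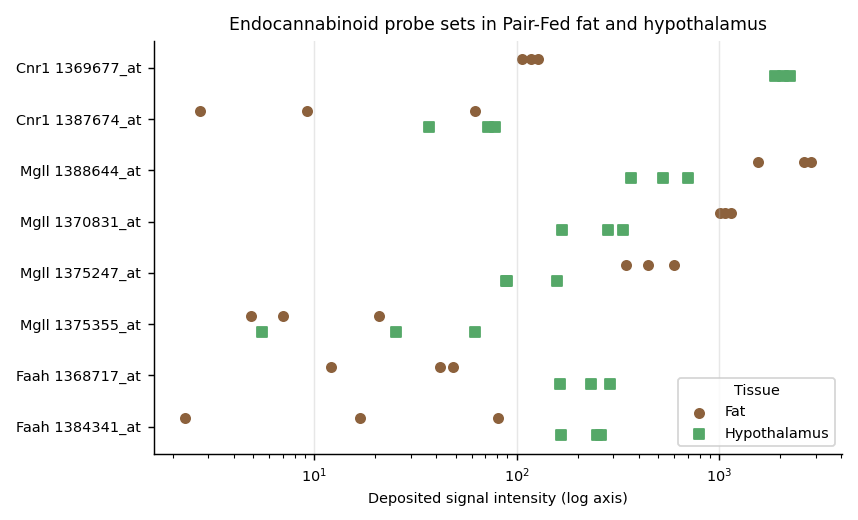
Deposited signal of the 8 member probe sets (rows) on the 3 Pair-Fed arrays of fat (circles) and of hypothalamus (squares), on a log axis, 1 mark per array. Cnr1 1369677_at and both Faah probe sets lie lower in fat, and 3 of the 4 Mgll probe sets lie higher. Levels of different probe sets cannot be compared.

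The wider pathway was looked at through a list of 26 other genes, of which 22 had 29 probe sets. Of these, 11 differed between the tissues in Pair-Fed rats, 4 higher and 7 lower in fat, with a median of -0.27 over the list against 0.49 over all probe sets. The shares over all probe sets were 15.8% higher and 11.4% lower. Higher in fat were both probe sets of Daglb, the second diacylglycerol lipase (1.93 ± 0.38 and 1.90 ± 0.41), Naaa, a lysosomal enzyme that cleaves anandamide relatives (2.16 ± 0.47), and Plaat5, an acyltransferase that makes anandamide precursors (4.07 ± 1.17). Lower in fat were Gnao1, a G protein subunit that Cnr1 couples to (-5.76 ± 0.84), Cnrip1, which binds the receptor's tail (-1.31 ± 0.25), and Rgs4 1368505_at, which shortens G protein signals (-1.18 ± 0.35). The other Rgs4 probe set, 1368506_at, had a difference of -0.74 ± 0.66 (adjusted p = 0.434), and Gnai1, another subunit that Cnr1 couples to, one of 0.10 ± 0.63 (adjusted p = 0.923).

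Also lower were Gde1 (-1.02 ± 0.23) and Gdpd1 1378235_at (-3.05 ± 0.35), phosphodiesterases of other routes to anandamide and its relatives, Plcb1, which makes diacylglycerol (-1.88 ± 0.30), and Fabp7, a fatty acid carrier of brain cells (-3.93 ± 0.76). Adjusted p-values ran from 8.76e-07 for Gdpd1 1378235_at to 0.0154 for Rgs4. A further Gdpd1 probe set, 1385302_at, had a difference of -0.031 and did not pass (adjusted p = 0.988). It read 7.45 to 95.4 in Pair-Fed fat against 15.5 to 62.3 in Pair-Fed hypothalamus, and the ranges overlapped. These signals are low and not shown to lie above background. Gnao1 read 4.51 to 28.0 in Pair-Fed fat against 601 to 786 in Pair-Fed hypothalamus. Fabp7 read 65.6 to 176 in Pair-Fed fat against 1198 to 1836 in Pair-Fed hypothalamus. Daglb 1382440_at read 5635 to 14280 in fat against 2045 to 2397 in hypothalamus, and no longer passed after median centring (1.39, adjusted p = 0.12). Plaat5 no longer passed after quantile normalization (3.31, adjusted p = 0.0593). Its Pair-Fed hypothalamus signals, 2.59 to 40.8, and those of Gnao1 in fat are low and not shown to lie above background. With 16 units added, the differences were 2.38 for Plaat5 and -4.55 for Gnao1.

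In hypothalamus, no member passed in any comparison of the treatment groups. The lowest p belonged to the receptor. Cnr1 1369677_at read 1309, 1019 and 769.6 in RYGB-Success rats, 1126, 1267 and 2055 in RYGB-Fail rats, and 2236.5, 1889.95 and 2074 in Pair-Fed rats. All 3 RYGB-Success arrays lay below all 3 Pair-Fed arrays, while the RYGB-Fail arrays ran across the gap, with 1 of them inside the Pair-Fed range.

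Cnr1 signal was 2.04-fold lower in RYGB-Success than in Pair-Fed hypothalamus, a difference of -1.03 ± 0.26 (95% interval -1.60 to -0.46). The unadjusted limma p was 0.0016, rank 130 of 18625, and the adjusted p was 0.215, which did not pass. Of the 7 member probe sets tested, 0 passed, 1 had an unadjusted p under 0.05 and 1 had groups that did not overlap, lower in RYGB-Success. The shares over all probe sets were 0.0107%, 13.1% and 7.28%. Under 14 alternative settings the difference stayed between -1.27 and -0.80, with adjusted p-values of 0.066 to 0.39.

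RYGB-Fail hypothalamus had a Cnr1 difference from Pair-Fed of -0.53 ± 0.26 (95% interval -1.09 to 0.04, adjusted p = 1). RYGB-Success differed from RYGB-Fail by -0.50 ± 0.26 (95% interval -1.07 to 0.06, adjusted p = 0.784). Both bypass groups together differed from Pair-Fed by -0.78 ± 0.23 (unadjusted p = 0.00428, adjusted p = 0.554). These comparisons share arrays and are not independent of one another. In each of them 0 of 7 members passed, against 0% of all probe sets for RYGB-Fail, 0.00537% for RYGB-Success against RYGB-Fail and 0% for both groups. The members with an unadjusted p under 0.05 numbered 0, 0 and 1 of 7, against 2.39%, 6.01% and 7.74% of all probe sets.

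The dim Cnr1 probe set did not follow the bright one. It read 77.1, 137 and 66.5 in RYGB-Success, 15.2, 39.5 and 83.2 in RYGB-Fail, and 36.6, 77.9 and 72.3 in Pair-Fed hypothalamus. All groups overlapped, and the difference between RYGB-Success and Pair-Fed was 0.59 ± 0.64 (adjusted p = 0.709). Across the 9 arrays the pair had a Pearson r of 0.03 in log2 signal.

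**Figure D2:**
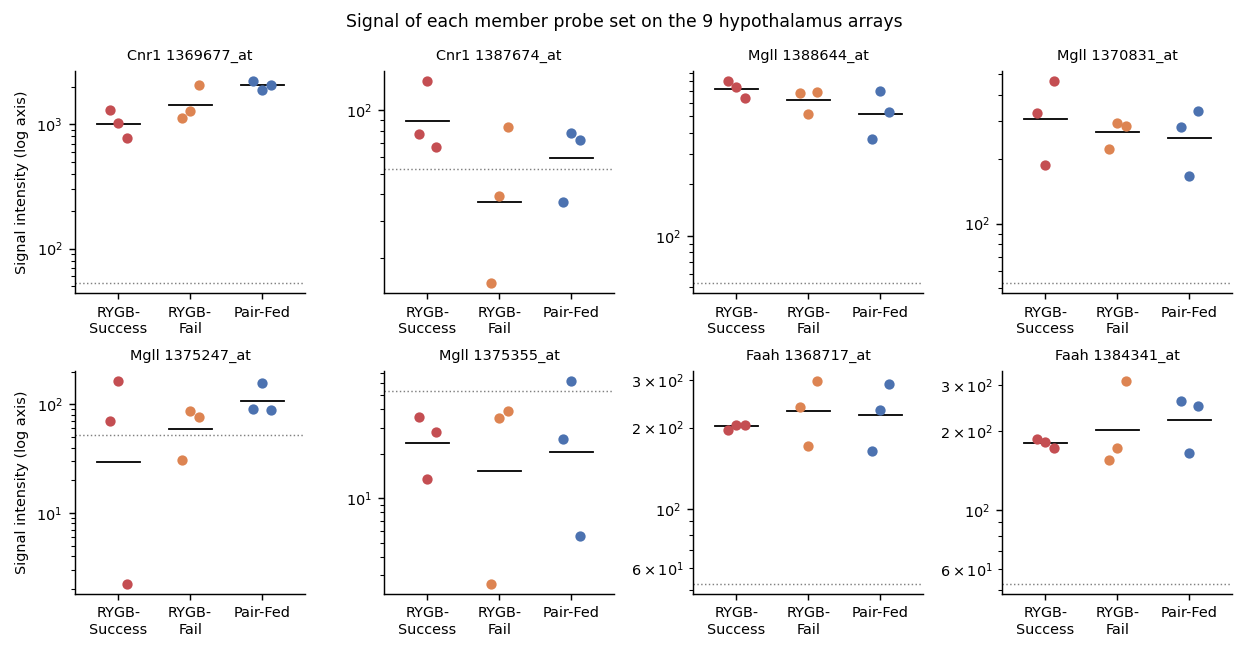
Signal of the 8 member probe sets on the 9 hypothalamus arrays, on log axes with a range per panel. Points are arrays, bars are geometric means of 3 arrays, and the dotted line marks the lowest mean signal kept by the filter, 52.7. Only for Cnr1 1369677_at do the RYGB-Success and Pair-Fed points not overlap.

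Markers of brain regions were read on the same arrays as Cnr1. The 10 cortex and striatum markers on the array (such as Drd1 and Ppp1r1b) summed to a signal of 3968 to 7230 in RYGB-Success, 3243.5 to 11977 in RYGB-Fail and 7217 to 12075 in Pair-Fed hypothalamus. Of the 9 tested, 9 were lower in RYGB-Success than in Pair-Fed, with a median difference of -0.84, and 0 passed. The 11 hypothalamus markers on the array (such as Pmch and Oxt) summed to 16837 to 34177 in RYGB-Success, 13316.5 to 21505.5 in RYGB-Fail and 7850 to 12786 in Pair-Fed. Of the 10 tested, 9 were higher in RYGB-Success than in Pair-Fed, with a median of 1.28, and 0 passed. Some markers of both lists read low, such as Pomc, down to 3.66, and Tbr1, down to 8.20, and are not shown to lie above background.

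The 4 blood markers on the array summed to 13546 to 26347 in RYGB-Success, 3512 to 8141 in RYGB-Fail and 3141 to 12520 in Pair-Fed hypothalamus, and 4 of 4 were higher in RYGB-Success than in Pair-Fed. Neuron markers had a mean log2 signal of 11.57 ± 0.23, 11.45 ± 0.27 and 11.61 ± 0.21 (SD, n = 3 each) in RYGB-Success, RYGB-Fail and Pair-Fed. GABA neuron markers were lower in RYGB-Success than in Pair-Fed for 3 of 3 (median -0.19). Glutamate neuron markers were lower for 1 of 2 (median -0.11), and 0 of either list passed. By array, the cortex and striatum list had a mean log2 signal of 8.58, 8.17 and 7.68 in RYGB-Success, 9.12, 7.42 and 9.09 in RYGB-Fail, and 8.46, 8.96 and 9.14 in Pair-Fed hypothalamus. Within RYGB-Success the list and Cnr1 had the same order, within RYGB-Fail and within Pair-Fed they did not. The third RYGB-Success array, with the lowest 3' to 5' ratios, also had the lowest Cnr1 signal. Without it the difference from Pair-Fed was -0.84 ± 0.26 (adjusted p = 0.39), and without the second Pair-Fed array it was -1.09 ± 0.31 (adjusted p = 0.321). The part of region, blood and RNA quality in the Cnr1 difference was not tested, and in these tissue pieces fewer cells that express a gene and less of its RNA per cell cannot be told apart.

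**Figure D3:**
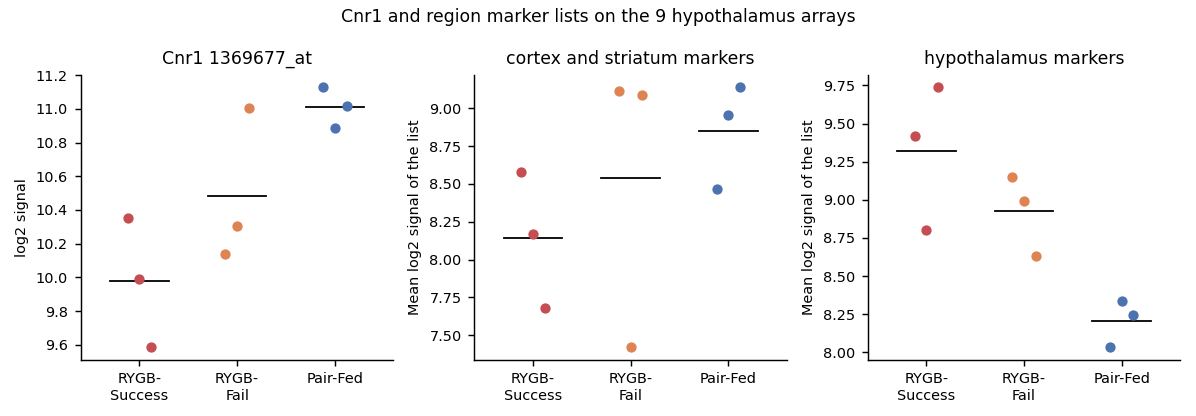
Log2 signal of Cnr1 1369677_at (left) and the mean log2 signal of the cortex and striatum markers (middle) and of the hypothalamus markers (right) on the 9 hypothalamus arrays. Points are arrays and bars are means of 3. RYGB-Success has the lowest mean for Cnr1 and the highest for the hypothalamus markers. For the cortex and striatum markers the means are 8.14 in RYGB-Success, 8.54 in RYGB-Fail and 8.85 in Pair-Fed. On a single array their lowest level, 7.42, is in RYGB-Fail.

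The enzymes in hypothalamus showed smaller differences or wide scatter. Mgll 1388644_at read 808, 739 and 637 in RYGB-Success, 686, 515 and 695 in RYGB-Fail, and 366, 704 and 530.1 in Pair-Fed rats. The groups overlapped through the second Pair-Fed array, and the difference between RYGB-Success and Pair-Fed was 0.49 ± 0.27 (adjusted p = 0.45). Mgll 1370831_at read 328, 189 and 464 in RYGB-Success, 224, 296 and 286 in RYGB-Fail, and 284, 167 and 335 in Pair-Fed, and its difference of 0.29 ± 0.35 was within the spread.

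Mgll 1375247_at was near the filter limit and read 70.6, 164 and 2.23 in RYGB-Success, 30.7, 86.6 and 76.3 in RYGB-Fail, and 89.8, 158 and 88.4 in Pair-Fed. Its difference of -1.87 ± 1.15 between RYGB-Success and Pair-Fed rested on the array at 2.23: without it the difference was -0.0029 ± 0.57 (adjusted p = 0.999). Its RYGB-Fail arrays all lay below its Pair-Fed arrays (-0.88 ± 1.15, adjusted p = 1), as those of 3.36% of all probe sets did. Mgll 1375355_at, which did not pass the filter, ran from 2.64 to 61.9 over the 9 arrays.

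Faah was even across the RYGB-Success hypothalamus arrays, at 196, 205 and 205 for 1368717_at and 187, 182 and 173 for 1384341_at. The other groups spread around these values. Faah 1368717_at read 239, 171 and 298 in RYGB-Fail and 164, 232 and 289 in Pair-Fed. Faah 1384341_at read 155, 173 and 309.8 in RYGB-Fail and 261, 165 and 248 in Pair-Fed. Differences between RYGB-Success and Pair-Fed were -0.14 ± 0.30 (95% interval -0.79 to 0.51) and -0.29 ± 0.32 (95% interval -0.98 to 0.40). With 3 arrays a group, a true difference of any size inside these intervals is not excluded.

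**Figure D4:**
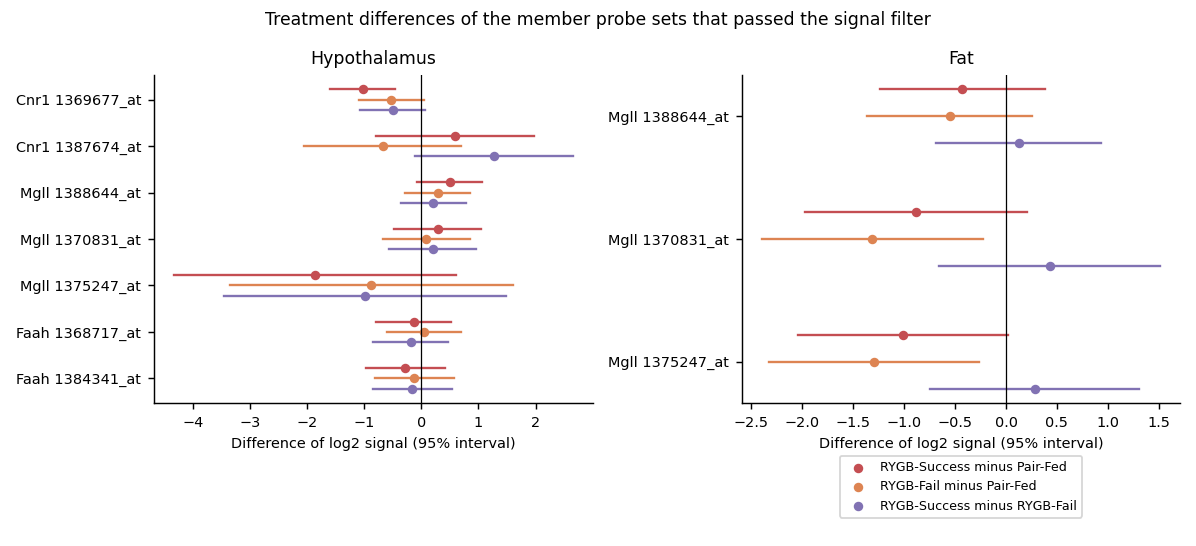
Differences in log2 signal between the treatment groups for the member probe sets that passed the filter, 7 in hypothalamus (left) and 3 in fat (right), as points with 95% intervals from limma. Colours stand for RYGB-Success minus Pair-Fed, RYGB-Fail minus Pair-Fed and RYGB-Success minus RYGB-Fail. The Cnr1 1369677_at interval for RYGB-Success minus Pair-Fed, -1.60 to -0.46, lies below 0 in hypothalamus, and in fat those for RYGB-Fail minus Pair-Fed do so for Mgll 1370831_at, -2.40 to -0.22, and 1375247_at, -2.32 to -0.26.

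In fat, Mgll was the one member gene with probe sets above the filter, and 2 of its 3 tested probe sets had every bypass array below every Pair-Fed array, though no difference passed. Mgll 1370831_at read 607, 909.9 and 357 in RYGB-Success, 947, 262 and 327 in RYGB-Fail, and 1067, 1145 and 1013 in Pair-Fed fat. Mgll 1375247_at read 297, 241 and 157 in RYGB-Success, 219, 109 and 263 in RYGB-Fail, and 348, 597 and 446 in Pair-Fed fat. The 6 bypass arrays lay below the 3 Pair-Fed arrays in the same way in 1.18% of all probe sets. Within the bypass groups the arrays spread widely.

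Both bypass groups together differed from Pair-Fed by -1.10 ± 0.43 for 1370831_at (2.14-fold lower, unadjusted p = 0.0262) and by -1.15 ± 0.41 for 1375247_at (2.22-fold lower, unadjusted p = 0.0155). Neither passed, with an adjusted p of 1.00 each. The brightest Mgll probe set, 1388644_at, read 1832, 1377 and 1883 in RYGB-Success, 993, 1626 and 2274 in RYGB-Fail, and 1549, 2847 and 2629 in Pair-Fed fat. Its groups overlapped, and its difference of -0.49 ± 0.32 did not pass (unadjusted p = 0.151). The 3 probe sets did not behave alike across the 9 fat arrays: Pearson r in log2 signal was 0.77 between 1370831_at and 1375247_at, 0.54 between 1388644_at and 1375247_at and -0.04 between 1388644_at and 1370831_at.

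Against Pair-Fed, RYGB-Success fat had Mgll differences of -0.88 ± 0.50 for 1370831_at, -1.01 ± 0.47 for 1375247_at and -0.43 ± 0.37 for 1388644_at. RYGB-Fail fat had differences of -1.31 ± 0.50, -1.29 ± 0.47 and -0.55 ± 0.37 for the same probe sets. Between RYGB-Success and RYGB-Fail the differences were 0.43 ± 0.50, 0.28 ± 0.47 and 0.12 ± 0.37, within the spread. In these comparisons and in the one of both bypass groups, 0 of 3 passed in limma, as did 0% of all probe sets. An unadjusted p under 0.05 was reached by 0 of 3 in RYGB-Success, 2 of 3 in RYGB-Fail, 0 of 3 between the bypass groups and 2 of 3 for both groups together, against 4.86%, 2.69%, 5.69% and 3.7% of all probe sets. Arrays that did not overlap, lower after bypass, were seen for 2 of 3 in RYGB-Success and for 2 of 3 in RYGB-Fail, against 7.69% and 4.33% of all probe sets. All of these probe sets are of Mgll and the comparisons share arrays, so the counts are not independent of one another.

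Cell type markers were also read on the fat arrays. The 9 skeletal muscle markers on the array (such as Ckm) summed to a signal of 14654 to 29390 in RYGB-Success, 26928 to 210251 in RYGB-Fail and 12370 to 15135 in Pair-Fed fat, and 9 of 9 were higher in the bypass groups together (median 4.52). Much of the lower sums was Myh1, which read 9077 to 28508 on the fat arrays and 15060 to 22142 on the hypothalamus arrays. By mean log2 signal the list was at 7.25 to 8.34 in RYGB-Success, 8.70 to 14.5 in RYGB-Fail and 5.37 to 7.06 in Pair-Fed fat. The 6 fibroblast markers (such as Col1a1) summed to 25127 to 72469 in RYGB-Success, 37822 to 85564 in RYGB-Fail and 84389 to 115873 in Pair-Fed fat, and 6 of 6 were lower in the bypass groups (median -1.12). The 9 adipocyte markers (such as Adipoq) summed to 91664 to 158602 in RYGB-Success, 70267 to 192673 in RYGB-Fail and 106180 to 179732 in Pair-Fed fat. Of the 8 tested, 8 were lower in the bypass groups together (median -0.29), 4 in RYGB-Success (median -0.028) and 8 in RYGB-Fail (median -0.47).

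The 7 epithelium markers summed to 471 to 7068 in RYGB-Success, 219 to 1351 in RYGB-Fail and 335 to 427 in Pair-Fed fat. The 7 macrophage markers (such as Csf1r) summed to 3080 to 5580 in RYGB-Success, 2927 to 10938 in RYGB-Fail and 4793 to 13067 in Pair-Fed fat, and 6 of 6 tested were lower in the bypass groups together (median -0.69). The 4 blood markers summed to 15193 to 41590 in RYGB-Success, 2910 to 7126 in RYGB-Fail and 5225 to 8565 in Pair-Fed fat, and 4 of 4 were higher in RYGB-Success than in Pair-Fed (median 1.72). The 5 endothelium markers summed to 33228 to 51356 in RYGB-Success, 18133 to 36881 in RYGB-Fail and 25132 to 38522 in Pair-Fed fat, and 5 of 5 were higher in RYGB-Success (median 0.57). In none of these lists did a marker pass, and some read low, such as Epcam, down to 2.96 in fat. Without the third RYGB-Fail fat array, which stood apart, the difference between RYGB-Fail and Pair-Fed was -1.11 ± 0.53 (adjusted p = 0.484) for 1370831_at and -1.55 ± 0.46 (adjusted p = 0.225) for 1375247_at. The second RYGB-Fail fat array had the highest muscle sum, 210251. Without it these differences were -0.95 and -0.91, the smallest of those with 1 array left out. The part of tissue composition in the Mgll differences was not tested.

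**Figure D5:**
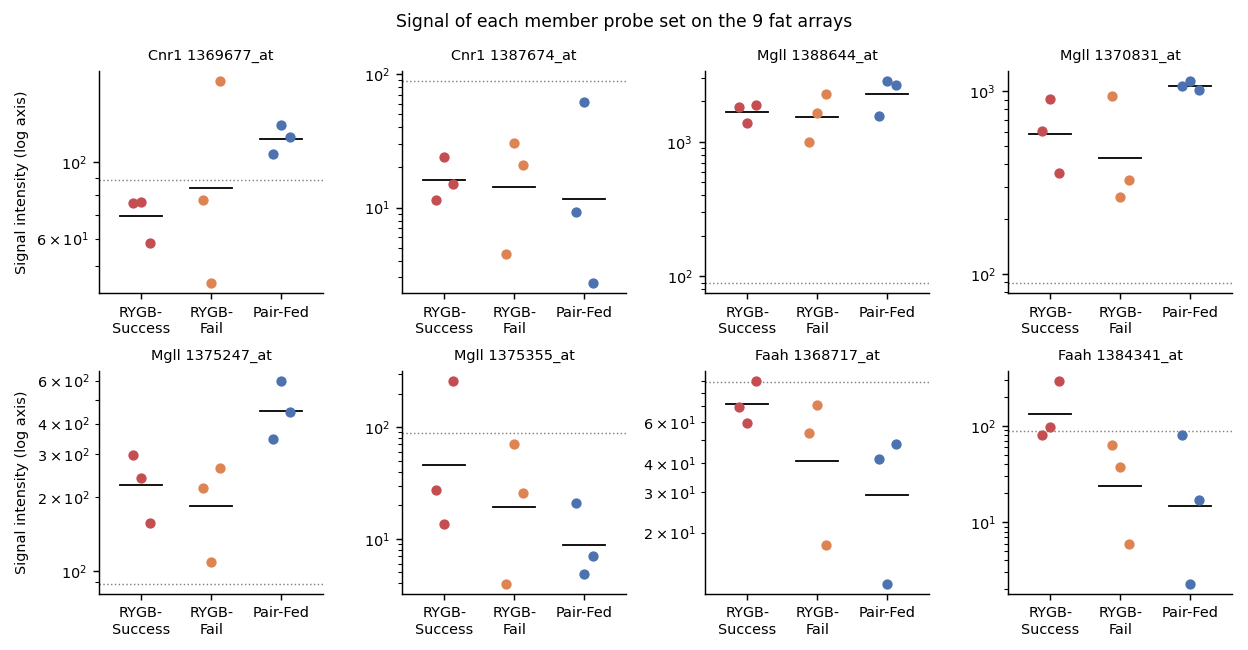
Signal of the 8 member probe sets on the 9 fat arrays, on log axes with a range per panel. Points are arrays, bars are geometric means of 3 arrays, and the dotted line marks the lowest mean signal kept by the filter, 88.9. For Mgll 1370831_at and 1375247_at the 6 bypass arrays lie below the 3 Pair-Fed arrays.

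Cnr1 and Faah fell under the signal filter in fat and were examined in a fit with no filter. Cnr1 1369677_at, at a mean signal of 88.1, lay just under the limit of 88.9. It read 76.1, 76.6 and 58.2 in RYGB-Success, 77.6, 44.6 and 171 in RYGB-Fail, and 106, 127 and 118 in Pair-Fed fat. The RYGB-Success arrays lay below the Pair-Fed arrays, as did those of 5.63% of all probe sets without the filter, with a difference of -0.74 ± 0.79 (adjusted p = 0.986), and RYGB-Fail spanned both groups.

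Faah in fat ran the other way. Faah 1384341_at read 80.9, 98.7 and 294 in RYGB-Success, 63.3, 37.1 and 5.92 in RYGB-Fail, and 80.8, 2.30 and 16.9 in Pair-Fed fat. Faah 1368717_at read 69.5, 59.3 and 89.9 in RYGB-Success, 53.7, 71.0 and 17.7 in RYGB-Fail, and 41.7, 12.1 and 48.4 in Pair-Fed fat. Both had their RYGB-Success arrays above their Pair-Fed arrays, as did 11% of all probe sets without the filter, though the lowest RYGB-Success and highest Pair-Fed values of 1384341_at nearly met. The differences were 3.18 ± 1.39 (unadjusted p = 0.0373) and 1.31 ± 1.04 (unadjusted p = 0.228) with an adjusted p of 0.986 each. These signals are low and scatter widely on a log scale. Cnr1 1387674_at ran from 2.71 to 62.2 over the 9 fat arrays, and Mgll 1375355_at from 3.98 to 70.4 on 8 of them, with 259 on the third RYGB-Success array.

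Whether the treatment differences themselves differed between tissues could be tested for the 3 Mgll probe sets that passed in both. For RYGB-Success minus Pair-Fed, fat minus hypothalamus was -0.92 ± 0.47 for 1388644_at, -1.17 ± 0.64 for 1370831_at and 0.85 ± 1.42 for 1375247_at. For RYGB-Fail minus Pair-Fed it was -0.84 ± 0.47, -1.40 ± 0.64 and -0.42 ± 1.42. Of 3, 0 passed in limma in these interactions and in that of RYGB-Success minus RYGB-Fail, as did 0% of 15531 probe sets, and 0, 1 and 0 had an unadjusted p under 0.05, against 8.26%, 3% and 6.45% of all. A difference between the tissues in the Mgll response was not shown.

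Among the other pathway genes, 0 of 19 probe sets in hypothalamus and 0 of 18 in fat passed in any comparison of the treatment groups, where the shares over all probe sets were 0% to 0.0107% and 0%. In RYGB-Success against Pair-Fed, 4 of 19 in hypothalamus and 2 of 18 in fat had an unadjusted p under 0.05, against 13.1% and 4.86% of all probe sets. The 4 genes with the lowest p for any group difference in hypothalamus were Plcb1, Fabp7, Abhd4 and Gde1. Plcb1 read 1407, 1357 and 1144 in RYGB-Success, 1496, 1201 and 1697 in RYGB-Fail, and 2082, 1826 and 2273 in Pair-Fed hypothalamus. Both bypass groups lay below Pair-Fed, as did 7.28% of all probe sets for RYGB-Success and 3.36% for RYGB-Fail, with a difference of -0.66 ± 0.21 for RYGB-Success (adjusted p = 0.251).

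Fabp7 read 910.3, 1323 and 295 in RYGB-Success, 1481, 1280 and 1314 in RYGB-Fail, and 1836, 1198 and 1536 in Pair-Fed hypothalamus, so its difference of -1.08 ± 0.41 between RYGB-Success and Pair-Fed leaned on the third RYGB-Success array. Abhd4, which acts before Gde1 on a route to anandamide, had a difference of 0.65 ± 0.24 with arrays that did not overlap, as did 10.8% of all probe sets in this direction. Gde1 had a difference of 0.52 ± 0.20 with arrays that overlapped. Their adjusted p-values were 0.299 and 0.325.

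In fat the lowest p-values belonged to Daglb, Fabp5, Trpv1 and Cnr2. Daglb 1382440_at read 3202, 2994 and 1569.57 in RYGB-Success, 13613, 4927 and 2884 in RYGB-Fail, and 14280, 5635 and 7430.1 in Pair-Fed fat. RYGB-Success lay below Pair-Fed (-1.77 ± 0.53, adjusted p = 0.697), as did 7.69% of all probe sets in fat, and RYGB-Fail ran across both. Trpv1 1370675_at, a channel that anandamide opens, read 72.5, 69.2 and 67.7 in RYGB-Success, 105, 155 and 194 in RYGB-Fail, and 122, 257 and 284 in Pair-Fed fat, with RYGB-Success below Pair-Fed in the same way (-1.57 ± 0.58, adjusted p = 0.825).

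Cnr2, the cannabinoid receptor of immune cells, read 239, 236 and 300.39 in RYGB-Success, 139, 81.7 and 28.8 in RYGB-Fail, and 138, 54.9 and 139.7 in Pair-Fed fat. Its RYGB-Success arrays lay above its Pair-Fed arrays (1.33 ± 0.71, adjusted p = 0.975), as did those of 10.9% of all probe sets tested in fat. The 6 lymphocyte markers on the array summed to 1732 to 13196 in RYGB-Success, 1321 to 1433 in RYGB-Fail and 695 to 1274 in Pair-Fed fat. Of the 5 tested, 5 were higher in RYGB-Success than in Pair-Fed and 0 passed. Macrophage markers were lower in 6 of 6 (median -0.94) and blood markers higher in 4 of 4, with 0 passed. The part of these cells in the Cnr2 difference was not tested. Fabp5, a carrier that brings anandamide to Faah, read 1328, 1942 and 3324 in RYGB-Success, 1111, 935 and 862 in RYGB-Fail, and 2052, 2736 and 1453 in Pair-Fed fat, and was lowest in RYGB-Fail (-1.06 ± 0.38 against Pair-Fed, adjusted p = 1).

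As a description of pattern, the genes whose log2 signal tracked the brightest probe set of each member most closely over the 9 arrays of a tissue were listed, and these points share the treatment groups and the scaling of each array. In hypothalamus, Cnr1 1369677_at was tracked by Nr4a3, Zmat2 and Mlip (Pearson r 0.96, 0.96 and 0.95). Mgll 1388644_at was tracked by Gtpbp6, Asic1 and LOC102549303 (0.95, 0.95 and 0.94), and Faah 1368717_at by Ints6l, Kcnt1 and Zfyve26 (0.95, 0.95 and 0.92). In fat, Mgll 1388644_at was tracked by Nnat, Dnaaf9 and Cbx1 (0.92, 0.90 and 0.89). Each search ran over 13229 to 13647 probe sets, and no p was computed.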

How the data were processed

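Total RNA was amplified with a NuGEN WT-Ovation kit and hybridised to single-colour arrays, per the labels' protocols. The authors deposited linear signal intensity values, and per the submitters' processing notes the tools were MAS5 and GCOS. Settings and detection calls were not used here. Each array's mean signal after trimming 2% at each end was 500.13 to 500.2, a common scale for all arrays.

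The table held 31099 probe sets, 57 of them controls, which were left out. A single gene symbol was given for 20837, of which 11 list it under a pair of identifiers. Several symbols were given for 425 and none for 9780. Log2 signals were tested 2-sided with limma 3.58.1 in R 4.3.3 (lmFit, eBayes with trend), fitted over all 9 arrays of a tissue, or all 18 for differences between tissues, and adjusted by Benjamini-Hochberg over all probe sets tested, with a threshold of 0.05. The tissue difference used no filter. The steps were tested on simulated data. Sequences and figures used Python 3.11.15, pandas 2.3.3 and matplotlib 3.10.9.

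Every member probe set is named, together with listed pathway genes that passed or had up to the 4 lowest F test p-values in a tissue. The members and lists were chosen with earlier results of these data known. P-values measure the spread between samples called biological replicates. With 3 arrays per group the precision is limited. Alternatives are given in the closing section. No item of the pathway list was found for Faah2, Gpr55, Gpr119 and Mapk3, which were not analysed here.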

Additional observations from a re-analysis of the deposited data

How the results depend on the processing

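Each comparison was repeated with 16 signal units added before log2, quantile normalization, median centring, a stricter filter (upper 40% by signal) or none, array weights, a replicate block, the compared groups alone, and without each array in turn. The count of member probe sets that passed stayed at 0 in every comparison of the treatment groups under every setting run. The tissue difference gave 2 passing members in place of 5 when restricted to probe sets above the filter in both tissues, where 3 Mgll probe sets could be tested. The compared-groups setting was run only for pairs of treatment groups within a tissue. The settings with a stricter filter or none were not run for the tissue difference, which had no filter to begin with. Where all probe sets are concerned, array weights gave 6 calls in place of 2 for RYGB-Success against Pair-Fed in hypothalamus and 39 in place of 0 in fat. Without the second RYGB-Success hypothalamus array the first of these became 65, and without the third RYGB-Fail fat array RYGB-Success against RYGB-Fail in fat became 1116 in place of 0. For Cnr1 1369677_at, quantile normalization and median centring kept the sign in hypothalamus. Median centring moved the median difference over all probe sets for RYGB-Success against Pair-Fed to -0.19 in place of 0.05 in hypothalamus, and to -0.27 in place of 0.11 in fat.

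Of 831 repeated member differences, 42 turned their sign, all uncalled. The cause was not tested. In hypothalamus, RYGB-Fail minus Pair-Fed turned for Faah 1368717_at with quantile normalization (-0.0153) and median centring (-0.062), for Mgll 1370831_at with median centring (-0.026) and for Faah 1384341_at with array weights (0.24). Both bypass groups minus Pair-Fed turned with array weights for Faah 1368717_at (0.0188) and 1384341_at (0.0193) and Cnr1 1387674_at (0.18), and with 16 units added for Cnr1 1387674_at (0.0145). In fat, RYGB-Success minus RYGB-Fail turned for Mgll 1370831_at with array weights (-0.10), and with median centring for 1375247_at (-0.0196) and 1388644_at (-0.18). The interaction of RYGB-Success minus Pair-Fed turned for Mgll 1375247_at with 16 units added (-0.0427), and that of RYGB-Success minus RYGB-Fail with array weights for 1370831_at (-0.0941) and 1388644_at (0.20).

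Leaving out 1 array at a time gave ranges that crossed 0 for Faah, Mgll and Cnr1 as follows. In hypothalamus, RYGB-Success minus Pair-Fed ran from -0.36 to 0.0518 for Faah 1368717_at and from -0.0135 to 0.64 for Mgll 1370831_at. RYGB-Fail minus Pair-Fed ran from -0.17 to 0.26 for Faah 1368717_at, -0.43 to 0.0697 for Faah 1384341_at and -0.21 to 0.29 for Mgll 1370831_at. RYGB-Success minus RYGB-Fail ran from -0.10 to 0.55 for Mgll 1370831_at, -2.23 to 0.87 for Mgll 1375247_at and -0.36 to 0.14 for Faah 1384341_at. Both bypass groups minus Pair-Fed ran from -0.26 to 0.15 for Faah 1368717_at, -0.11 to 0.39 for Mgll 1370831_at and -0.39 to 0.27 for Cnr1 1387674_at. In fat, RYGB-Success minus RYGB-Fail ran from -0.10 to 0.535 for Mgll 1375247_at and -0.19 to 0.40 for 1388644_at. The interaction of RYGB-Success minus Pair-Fed ran from -1.01 to 2.09 for Mgll 1375247_at. That of RYGB-Success minus RYGB-Fail ran from -0.14 to 0.79 for 1370831_at, -0.59 to 2.51 for 1375247_at and -0.40 to 0.19 for 1388644_at.

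The titles give each group the replicate numbers 1 to 3, and nothing says that a number is shared between animals. Correlations of deviations between same-numbered arrays were -0.163 to 0.0703 among hypothalamus arrays and -0.126 to 0.29 among fat arrays, with 0 and 3 of 9 pairs over 0.1. Between the tissues of a group they were -0.0591 to 0.204, with 4 of 9 pairs over 0.1. Since other pairs lay lower, the numbers were not taken to pair the arrays. With the replicate block, 5 of 8 members still passed between tissues, 0 passed in each treatment comparison, and Cnr1 1369677_at in hypothalamus had an adjusted p of 0.275 for RYGB-Success against Pair-Fed. Probe sets with low signal, such as Faah in fat, are the least certain.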
